A study of Mus musculus with 16 samples.

Results

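Connexins are the proteins of vertebrate gap junctions. Subunits assemble into a ring in the membrane of a cell, and rings of neighbouring cells dock to form a channel that passes ions and small metabolites. In the brain, each cell class uses its own set: astrocytes couple through Cx43 and Cx30, oligodendrocytes carry Cx32 and Cx29, interneurons form electrical synapses of Cx36, and vessels use Cx37, Cx40, Cx43 and Cx45. The 9 connexin genes described here were taken by name from a count table of 55385 genes. They are Gjc1 (Cx45), Gja1 (Cx43), Gjb6 (Cx30), Gjc3 (Cx29), Gjd2 (Cx36), Gjb1 (Cx32), Gjb2 (Cx26), Gja4 (Cx37) and Gja5 (Cx40). The members were chosen by earlier results of these data: Gjc1 was picked because its reads were lower in 5xFAD than in wild-type cortex, and the others because they mark glia, vessels or neurons. The 5xFAD against wild-type difference is therefore given for all members as a description with no test.

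Cortex of 16 mice, each 5 months old, was sequenced as polyadenylated RNA, with 1 library per animal and 4 animals per genotype. The wild-type animals were C57BL/6J, and the labels give no further strain for the others. Dp16 mice carry an extra copy of the part of mouse chromosome 16 that matches most of human chromosome 21, and 5xFAD mice carry mutant human transgenes, APP among them, driven by the neuronal Thy1 promoter. The 5xFAD-Dp16 mice carry both. Wild-type, Dp16 and 5xFAD groups held 2 males and 2 females each, whereas all 4 5xFAD-Dp16 animals were male, so sex was a term of every model. Libraries held 12483286 to 20385010 counted reads. The median correlation of a library with the others was 0.939 for wild-type replicate 2 and 0.938 for 5xFAD replicate 3, against 0.953 to 0.972 for the other 14, and the differences of the members are also given without these 2 libraries. None of the 9 members lies on chromosome 16, so none is in the duplicated segment.

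Levels between genes are given in RPKM, reads scaled to gene length and library total, as deposited. Gja1 was the most abundant member, at 75.8 ± 10.4 RPKM (SD, n = 16). Gjb6 followed at 30.3 ± 5.33, Gjb1 at 20.5 ± 4.95 and Gjc3 at 15.9 ± 2.26 RPKM. The other members were far lower. Gjd2 stood at 2.18 ± 0.469, Gja4 at 1.88 ± 0.847, Gjb2 at 1.68 ± 0.828 and Gjc1 at 1.51 ± 0.914 RPKM, values that do not differ beyond their spread over libraries. Gja5 was lowest at 0.0435 ± 0.0581 RPKM. Glial connexins thus made up most of the connexin RNA: of the summed RPKM of the 9 members, Gja1 alone took between 48.3% (mean of the wild-type libraries) and 53.7% (5xFAD-Dp16). Gjc1 took 1.59% ± 0.627 of it in wild-type, 1.082% ± 0.0972 in Dp16, 0.336% ± 0.0521 in 5xFAD and 0.948% ± 0.191 in 5xFAD-Dp16 (SD, n = 4 each).

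Differences between genotypes were fitted on counts, with 17019 of the 55385 genes kept by a filter on low counts. Of the 9 members, 8 passed this filter and Gja5 did not. Values per library are in CPM, counts scaled to a common effective library size. Differences are log2 differences from edgeR's quasi-likelihood model, in which a difference of 1 is a doubling.

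**Figure D1:**
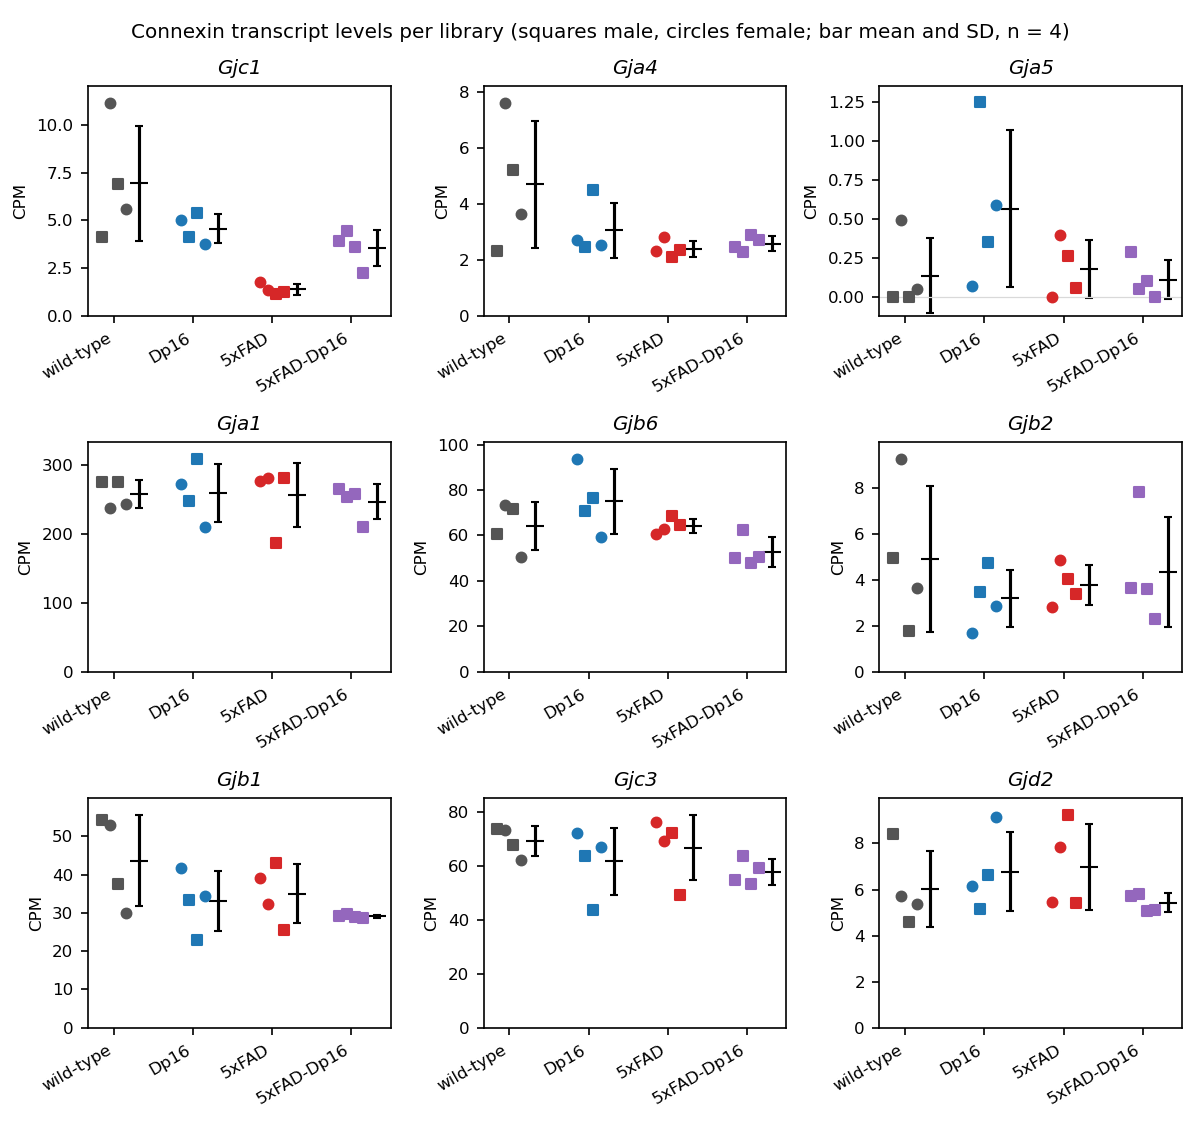
Each panel shows 1 connexin gene, with CPM per library on the y axis and the 4 genotypes on the x axis. Squares are males, circles females, and the bar beside each group is its mean and SD (n = 4). The 4 5xFAD libraries of Gjc1 sit between 1.12 and 1.78 CPM, below every library of the other genotypes, whereas in the other panels no genotype stands apart from all the others.

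Gjc1 encodes Cx45, a connexin of vascular smooth muscle, pericytes and some neurons. The gene lies on chromosome 11 from 102799579 to 102819700 on the minus strand (GRCm38). The 4 wild-type libraries gave 4.11, 11.1, 6.90 and 5.57 CPM, from 69 to 135 reads. The 4 Dp16 libraries gave 5.04, 4.11, 5.37 and 3.76 CPM. The 4 5xFAD libraries gave 1.78, 1.37, 1.12 and 1.24 CPM, from 17 to 27 reads. All 5xFAD values lay below the lowest value of any other genotype, and the highest wild-type value came from replicate 2, a library that stood apart. The 5xFAD-Dp16 libraries gave 3.92, 4.43, 3.60 and 2.26 CPM, all above the 5xFAD values and overlapping the Dp16 values.

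Gjc1 was 4.96-fold lower in 5xFAD than in wild-type cortex. The log2 difference was -2.31 (SE 0.31, 95% interval -2.97 to -1.65), and it was -1.94 with both libraries that stood apart left out and -2.24 in males only. These values chose the gene and carry no test. Gjc1 was the 1 member of 9 whose groups did not overlap in this comparison, where 5.48% of all tested genes did not overlap, 2.68% lower and 2.80% higher.

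On the Dp16 background, Gjc1 did not differ past the threshold between mice with and without the 5xFAD transgenes. The log2 difference of 5xFAD-Dp16 minus Dp16 was -0.23 (SE 0.32, 95% interval -0.90 to 0.45, adjusted p = 0.846, edgeR), and the groups overlapped, at 2.26 to 4.43 against 3.76 to 5.37 CPM. The 2 groups are the 8 libraries that the choice of Gjc1 did not use. The wild-type and 5xFAD libraries still entered the sex term and variance of the fit. With both libraries that stood apart left out the difference was -0.35, and in males only it was -0.42. This difference and that of 5xFAD minus wild-type compare separate animals. They are not independent, since they share the sex term and variance of the same fit. The difference between them was 2.09 (SE 0.45), or 1.59 without both libraries, given with no test because it includes the comparison that chose the gene. For the same reason 5xFAD-Dp16 minus 5xFAD is a description: Gjc1 was 2.87-fold higher in 5xFAD-Dp16, a log2 difference of 1.52 (SE 0.34), with no overlap of the groups, as for 11.5% of all tested genes (5.59% higher, 5.87% lower). With both libraries that stood apart left out it was 1.31. Dp16 minus wild-type was -0.56 (SE 0.29) with overlapping groups, and -0.28 without those libraries.

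The other vessel connexins are Gja4 and Gja5, which encode Cx37 and Cx40 of arterial endothelium. Gja4 gave 2.32, 7.598, 5.21 and 3.63 CPM in wild-type and 2.70, 2.45, 4.51 and 2.52 CPM in Dp16. In 5xFAD it gave 2.31, 2.80, 2.11 and 2.36 CPM, and in 5xFAD-Dp16 2.44, 2.27, 2.87 and 2.70 CPM. Wild-type was the spread-out group, and its lowest library lay among the 5xFAD values. The log2 difference of 5xFAD minus wild-type was -0.95 (SE 0.33, not tested), but -0.62 without wild-type replicate 2 and -0.53 without both libraries that stood apart. Dp16 minus wild-type was -0.59 (SE 0.33, edgeR adjusted p = 1.00), but -0.28 without wild-type replicate 2 and -0.27 without both libraries. On the Dp16 background the 5xFAD difference was -0.20 (SE 0.36, edgeR adjusted p = 0.884), and -0.32 without both.

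Gja5 gave 70 reads in all 16 libraries together and was listed at 0 in 4 of them. The sums per genotype were 7 reads in wild-type, 42 in Dp16, 12 in 5xFAD and 9 in 5xFAD-Dp16. The Dp16 libraries held 1, 22, 7 and 12 reads, so the higher sum came mostly from 2 animals and the group overlapped all others. The 4 libraries at 0 allow up to 0.170 to 0.200 CPM of counted reads, taking 3 reads as the limit, counting error only, and no fold change was computed. The span of Gja5 overlaps Gpr89 on the opposite strand, which drew 8731 reads. The libraries were strand-specific per the labels, but the strand setting of the counting is not given in the sources used here.

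Since the cortex was sequenced whole, fewer cells of a type and less RNA per cell cannot be told apart, and markers of vessel cells were read beside Gjc1 and Gja4. The 8 endothelial markers (such as Cldn5, Pecam1 and Flt1) were all lower in 5xFAD than in wild-type, with a median log2 difference of -0.84, against 0.02 over all tested genes. Their summed level was 76.6 to 114 CPM in 5xFAD and 135 to 180 in wild-type libraries, with no overlap. Of the 8 pericyte and smooth muscle markers 7 were lower, median -0.44, with summed levels of 273 to 352 CPM in 5xFAD and 316 to 373 in wild-type. No gene of these lists passed the test, the nearest being Cldn5, the tight junction protein of the blood-brain barrier, at -0.67 (SE 0.16, edgeR adjusted p = 0.163). No marker of the lists was at 0 in any group. The difference of Gjc1 was larger than that of every marker of these 2 lists, whose lowest values were -1.03 and -0.90.

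In the comparison in which Gjc1 was higher, these markers were mostly higher too. In 5xFAD-Dp16 minus 5xFAD all 8 endothelial markers were higher, median 0.85, and 5 of 8 pericyte and smooth muscle markers, median 0.55, none past the threshold. Their summed levels were 105 to 182 and 280 to 340 CPM in 5xFAD-Dp16. Both overlapped the sums in 5xFAD, at 76.6 to 114 and 273 to 352 CPM. The means of the pericyte and smooth muscle sums were 320 and 308 CPM in 5xFAD-Dp16 and 5xFAD. In 5xFAD-Dp16 minus Dp16, where the Gjc1 difference was -0.23, the medians were -0.13 and -0.16. Of the 6 arterial endothelial markers 2 were lower in 5xFAD than in wild-type, median 0.07. Some lists of other cell types had the same signs. In 5xFAD minus wild-type the astrocyte, interneuron and microglial medians were instead 0.07, 0.06 and 0.41. All 5 oligodendrocyte precursor markers were lower in 5xFAD than in wild-type (median -0.53), as were 4 of 5 excitatory neuron markers (median -0.42), 5 of 7 meningeal and fibroblast markers (median -0.41) and 8 of 10 oligodendrocyte markers (median -0.31). In 5xFAD-Dp16 minus 5xFAD all 5 precursor markers were higher (median 0.95), and 4 of 5 excitatory neuron markers (median 0.87). The oligodendrocyte, astrocyte and interneuron medians were each 0.02 there, and the microglial median -0.21. All 5 choroid plexus markers were higher too (median 2.03), with 1 library far above the rest. Their summed level was 690 CPM in 5xFAD-Dp16 replicate 2 and 5.34 to 22.7 in the others of that genotype. In 5xFAD the sums were 6.46 to 16.2 CPM. In 5xFAD minus wild-type 3 of these 5 markers were lower (median -0.15). The part of vessel or other cell content in the Gjc1 difference was not tested.

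**Figure D2:**
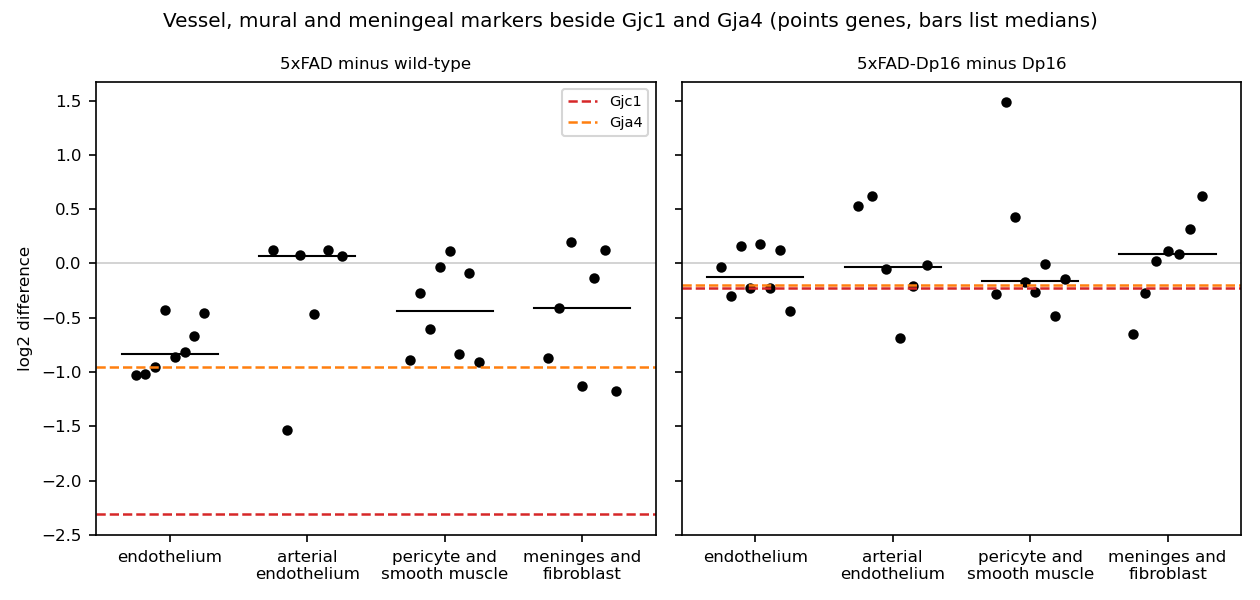
Points are the log2 differences of single marker genes in 4 lists, bars are list medians, and dashed lines are Gjc1 and Gja4. In 5xFAD minus wild-type (left) the endothelial median is -0.84 and the Gjc1 line lies at -2.31, below all points. In 5xFAD-Dp16 minus Dp16 (right) Gjc1 lies at -0.23, among the points.

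Gja1 and Gjb6 encode Cx43 and Cx30, which join astrocytes into a network that carries potassium and metabolites away from active synapses. Gja1 gave 238 to 276 CPM in wild-type and 210 to 309 in Dp16. It gave 277, 282, 186 and 282 CPM in 5xFAD and 210 to 266 in 5xFAD-Dp16. The group means were 258 ± 20.1, 260 ± 41.5, 257 ± 47.0 and 247 ± 25.1 CPM (SD, n = 4), within the spread of each group. The log2 difference of 5xFAD-Dp16 minus Dp16 was -0.10 (95% interval -0.44 to 0.24), and of Dp16 minus wild-type 0.01 (-0.31 to 0.32). Without both libraries that stood apart these were -0.14 and -0.0071. In the same libraries the astrocyte intermediate filament gene Gfap went from 162 ± 7.81 CPM in wild-type to 596 ± 260 in 5xFAD, a log2 difference of 1.84 (SE 0.25, edgeR adjusted p = 0.00283), whereas the same difference of Gja1 was -0.0037 (SE 0.15, not tested). That value moved with the libraries used, to 0.15 without 5xFAD replicate 3, 0.12 without both libraries that stood apart and -0.26 in males only. Gfap was the 1 astrocyte marker of 10 that passed the threshold in 5xFAD minus wild-type. Of the 10 markers 6 were higher and 4 lower, from -0.50 to 1.84, with a median of 0.07.

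Gjb6 was the member with the smallest unadjusted p on the Dp16 background. The Dp16 libraries gave 93.6, 70.7, 76.2 and 59.2 CPM, and the 5xFAD-Dp16 libraries gave 49.999, 62.3, 47.7 and 50.3 CPM. All but 1 of the 5xFAD-Dp16 values lay below all Dp16 values. The log2 difference was -0.53 (SE 0.16, 95% interval -0.88 to -0.19). Its unadjusted p was 0.00465 and its adjusted p 0.758 (edgeR), so it did not pass, and the difference was -0.57 without both libraries that stood apart. Wild-type gave 50.6 to 73.6 CPM and 5xFAD 60.8 to 68.4 CPM, with a log2 difference of 0.00029 (SE 0.15) between these groups, and 0.07 without both libraries. Gjb6 in Dp16 minus wild-type was 0.23 (SE 0.15, edgeR adjusted p = 1.00), and in 5xFAD-Dp16 minus 5xFAD -0.31 (SE 0.16, edgeR adjusted p = 0.250), or 0.32 and -0.32 without both. The 10 astrocyte markers had a median of 0.07 in 5xFAD-Dp16 minus Dp16, with 5 lower and 5 higher. Gjb6 and Gjb2 are neighbours on chromosome 14, and Gjb2 differed by 0.46 (SE 0.49) in that comparison, the opposite sign.

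Gjb2 encodes Cx26, which in the brain is known from the meninges and a share of astrocytes. It varied widely between animals, with 4.94, 9.25, 1.76 and 3.63 CPM in wild-type and 3.63, 7.81, 3.60 and 2.31 CPM in 5xFAD-Dp16. Within a genotype the highest library was up to several times the lowest, and the groups overlapped in all comparisons. Its 95% interval in 5xFAD-Dp16 minus Dp16 ran from -0.58 to 1.5, so a doubling could not be told from no difference, and its estimate was 0.33 without both libraries that stood apart. In 5xFAD minus wild-type it was -0.35 (not tested), but 0.17 without wild-type replicate 2 and 0.18 without both. The summed CPM of 7 meningeal and fibroblast markers was read beside it. In wild-type and 5xFAD-Dp16 the library with the highest Gjb2, replicate 2 in both, also had the highest sum, at 620 CPM (others 349 to 532) and 890 CPM (others 363 to 452). In the other genotypes it did not: Dp16 replicate 1 had the highest sum, 647 CPM, and the lowest Gjb2, 1.70 CPM, and in 5xFAD the highest sum was in replicate 3 (434 CPM) and the highest Gjb2 in replicate 2 (4.86 CPM). In 5xFAD-Dp16 replicate 2 the 5 choroid plexus markers summed to 690 CPM, against 5.34 to 109 in the other 15 libraries. After genotype and sex means were removed, Gjb2 and the meningeal list had r = 0.69 and rho = 0.60 over 16 libraries (permutation adjusted p = 0.033 and 0.12 over 99 relations), and r = 0.72 without the 2 farthest libraries. The rank correlation did not pass the threshold. The permutations ignored the means removed, which makes their p-values too low, so the 0.033 is not read as passing. The part of meningeal content in the Gjb2 values was not tested.

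Oligodendrocyte connexins couple these cells to each other and to astrocytes, and mutation of human GJB1 causes a demyelinating neuropathy of peripheral nerves. Gjb1 gave 54.2, 53.0, 37.4 and 29.9 CPM in wild-type and 41.7, 33.4, 22.8 and 34.3 in Dp16. In 5xFAD it gave 39.2, 32.2, 43.0 and 25.5 CPM. The 4 5xFAD-Dp16 libraries gave 29.2, 29.6, 28.9 and 28.6 CPM, a mean of 29.1 ± 0.435 (SD, n = 4), inside the range of Dp16 and 5xFAD. Dp16 minus wild-type was -0.41 (SE 0.21, edgeR adjusted p = 1.00) and 5xFAD minus wild-type -0.32 (SE 0.21, not tested), or -0.35 and -0.41 without both libraries that stood apart. Gjc3 had means of 69.3 ± 5.46, 61.7 ± 12.6, 66.8 ± 12.2 and 57.8 ± 4.76 CPM in wild-type, Dp16, 5xFAD and 5xFAD-Dp16, and its log2 differences lay between -0.18 and 0.01, or between -0.21 and 0.05 without both libraries. Beside them, all 10 oligodendrocyte markers were lower in 5xFAD-Dp16 than in Dp16, median -0.25, none past the threshold.

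Gjd2 encodes Cx36, the connexin of electrical synapses between cortical interneurons. It gave 4.60 to 8.39 CPM in wild-type, 5.13 to 9.15 in Dp16, 5.40 to 9.24 in 5xFAD and 5.07 to 5.82 in 5xFAD-Dp16. The 4 ranges overlapped. The log2 differences ran from -0.36 (5xFAD-Dp16 minus 5xFAD, SE 0.27) to 0.21 (5xFAD minus wild-type, SE 0.25), but were -0.07 and -0.05 without both libraries that stood apart. The 6 interneuron markers beside it had medians of 0.02 and 0.06 in these comparisons. In the first of them 3 were higher and 3 lower, from -1.02 (Pvalb, SE 0.28) to 0.29, and in 5xFAD-Dp16 minus Dp16, where Gjd2 was -0.32 (-0.22 without both libraries), 4 of 6 were lower, median -0.19. The lncRNA gene A530058N18Rik, on the opposite strand, overlaps the start of Gjd2. Its entries begin at 114013602 (1620 reads) and 114013563 (21 reads), and Gjd2 (1752 reads) spans 114009601 to 114013619. The shared stretch is thus a small part of Gjd2, and the reads of that stretch are uncertain.

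**Figure D3:**
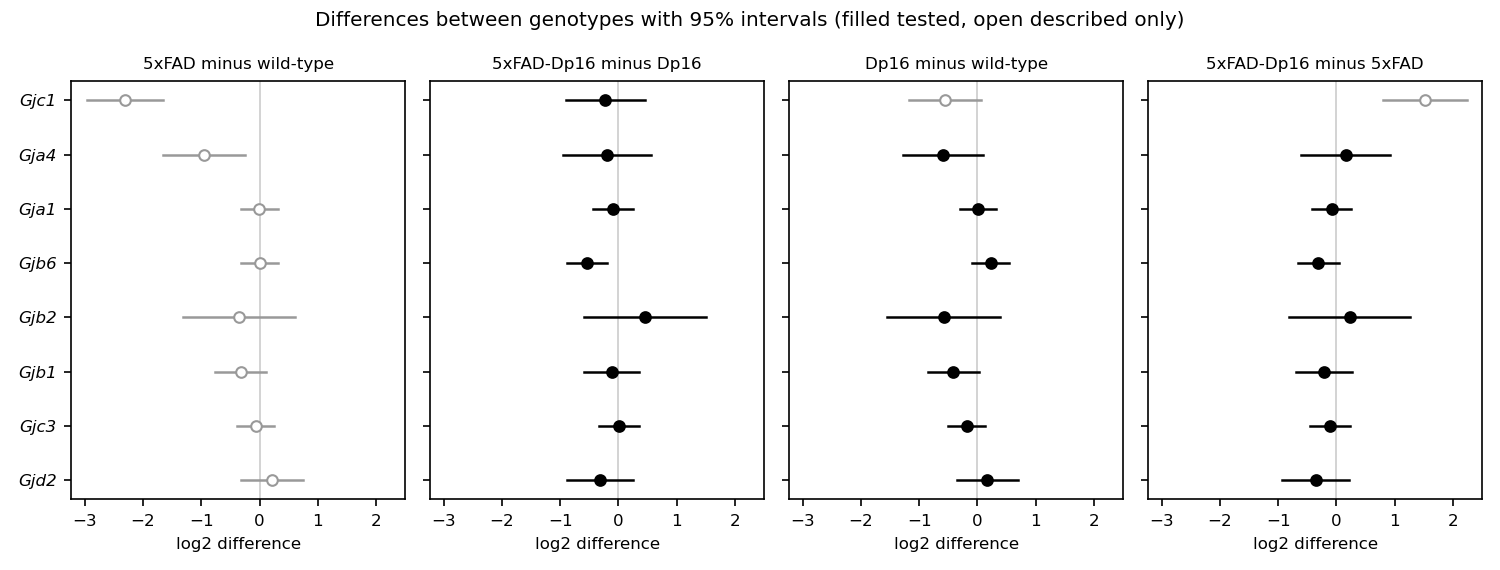
Log2 differences of the 8 connexins that passed the filter, with 95% intervals, in 4 genotype comparisons. Filled points were tested and open points are descriptions. Gjc1 lies at -2.31 in 5xFAD minus wild-type and at 1.52 in 5xFAD-Dp16 minus 5xFAD, while the tested points lie between -0.59 and 0.46.

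Across the tests, no connexin passed the adjusted threshold of 0.05 in any comparison. In 5xFAD-Dp16 minus Dp16 it was 0 of 8, with Gjb6 alone under an unadjusted p of 0.05, where 0.0176% of all tested genes passed (3 genes). In Dp16 minus wild-type it was 0 of 7 (0.0176% of all genes, 3 genes). In 5xFAD-Dp16 minus 5xFAD it was 0 of 7, and no gene of the table passed in edgeR although 4049 had an unadjusted p below 0.05 and DESeq2 called 781. In male minus female it was 0 of 8 (0.0353% of all genes, 0.0235% higher and 0.0118% lower). In 5xFAD minus wild-type 0.176% of all genes passed, 0.0176% as lower. With so few genes called, a count of 0 members is near the background. The CPM of the 2 groups overlapped for all 9 members in 5xFAD-Dp16 against Dp16, where 5.43% of all tested genes did not overlap (2.82% higher, 2.61% lower), and in Dp16 against wild-type, where it was 2.29% (1.44% higher, 0.852% lower). DESeq2 also called no member in the 4 tested comparisons.

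No sex difference of the 8 fitted members passed the threshold. Male minus female ran from -0.29 for Gjc1 (SE 0.25, 95% interval -0.82 to 0.23, edgeR adjusted p = 0.889) to 0.05 for Gja1 and Gjb6. For Gjc1 it was -0.04 without both libraries that stood apart and -0.43 with a replicate block. The interval of Gjb2 ran from -0.85 to 0.73. Gjb1 lies on the X chromosome and differed by -0.12 (SE 0.17, edgeR adjusted p = 0.901).

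Among the other connexin genes looked up, Gjd3 and Gja6 passed the filter, at 1.11 and 0.198 RPKM. Neither passed a test, and both were too low for narrow intervals. Gja10, Gjd4 and Gje1 had no read in 277709261 pooled reads, a limit of 0.0108 CPM of counted reads at 3 reads. Pannexins form channels related to connexins in topology. Panx2 and Panx1 were measured at 15.01 and 2.64 RPKM, and neither passed, Panx2 being higher in 5xFAD-Dp16 than in 5xFAD by 0.87 (SE 0.32, edgeR adjusted p = 0.161). The 17 partners and regulators of connexins, among them Tjp1, Cdh2, Ctnnb1 and Hepacam, were all tested and none passed in any comparison. In 5xFAD minus wild-type 14 of 17 were negative, median -0.22, where 47.9% of all tested genes were negative. In the other genotype comparisons most were positive, 13 of 17 in Dp16 minus wild-type (median 0.04), 12 of 17 in 5xFAD-Dp16 minus Dp16 (median 0.11) and 15 of 17 in 5xFAD-Dp16 minus 5xFAD (median 0.44). Of all tested genes 49.6%, 48.4% and 50.2% were negative in these 3 comparisons. In male minus female 12 of 17 were negative (median -0.06), where 51.1% of all tested genes were.

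The genes beside Gjc1 on chromosome 11 were read for a shared change. Of the 5 tested genes on each side, only Gfap passed, in 5xFAD minus wild-type, and it rose. Its transcription start is 81.2 kb from that of Gjc1. The nearest genes, Higd1b at 16.1 kb and Adam11 at -58.3 kb, differed by 0.18 (SE 0.43, edgeR) and -0.42 (SE 0.23) in that comparison. The remaining neighbours were mostly lower there too. Fzd2 differed by -0.53 (SE 0.28), C1ql1 by -0.47 (SE 0.28), Ccdc103 by -0.24, Eftud2 by -0.11 and Ccdc43 by -0.08. The barely detected 2810433D01Rik and Gm11637 differed by -0.75 (SE 1.48) and 0.38 (SE 0.73). All were smaller in size than the Gjc1 difference.

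**Figure D4:**
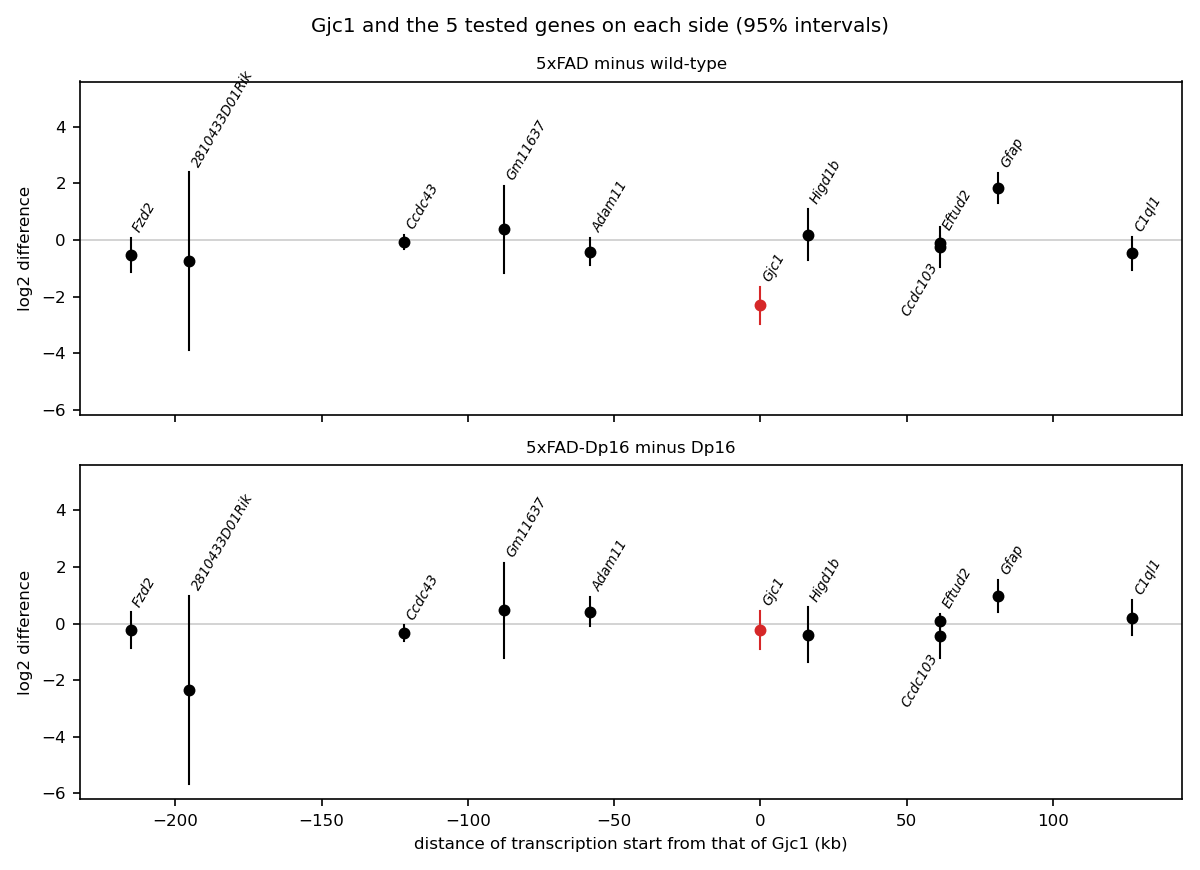
Log2 differences with 95% intervals of Gjc1 (red) and the 5 tested genes on each side, against the distance of each gene's transcription start from that of Gjc1 in kb. In 5xFAD minus wild-type (top) Gjc1 lies at -2.31 and Gfap, 81.2 kb away, at 1.84. In 5xFAD-Dp16 minus Dp16 (bottom) Gjc1 lies at -0.23. Eftud2 and Ccdc103 start 61.3 and 61.5 kb away and share a position.

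By likeness over the 16 libraries, the genes closest to Gjc1 in log2 CPM, of 13233 compared, were Itm2c (Pearson r = 0.90), Mtch1 (0.90), Gatad1 (0.89), B4galt4 (0.87) and Snx21 (0.87). These values describe 16 libraries in which the 5xFAD group is low, and after genotype and sex means were removed r was 0.59, 0.69, 0.78, 0.75 and 0.31. Itm2c was 896 CPM in wild-type and 687 in 5xFAD, a log2 difference of -0.38, far smaller than that of Gjc1. For Gja1 after the means were removed the closest were Zfp622, Tubb2b and Sec14l2, each with r = 0.96. For Gjb1 they were Mfsd4b4 (0.92), Adi1 (0.91) and Taldo1 (0.91). The points share library depth and quality.

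Within genotypes, the oligodendrocyte connexins varied together from animal to animal. After genotype and sex means were removed, Gjb1 and Gjc3 had r = 0.86 over 16 libraries (Spearman rho = 0.84, each permutation p = 6e-05, adjusted p = 0.00168 over 28 pairs of members), and r = 0.79 without the 2 libraries farthest from the median. It was the 1 pair of 28 that passed. The next, Gjc1 with Gja4, had r = 0.68 and rho = 0.57 (permutation, adjusted p = 0.0532 and 0.222). Gja1 and Gjb6, both astrocyte connexins, had r = 0.18 and rho = 0.19 (permutation, adjusted p = 0.673 and 0.694).

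Against the mean of 10 oligodendrocyte markers, Gjc3 had r = 0.92 (rho = 0.93, permutation adjusted p = 0.00033 and 0.00099 over 99 relations) and Gjb1 r = 0.90 (rho = 0.89, the same adjusted p values). Without the 2 farthest libraries r was 0.91 and 0.81. Gja1 followed the astrocyte markers, r = 0.89 and rho = 0.86 (permutation adjusted p = 0.000742 and 0.00198). It also followed microglial markers (r = 0.88, rho = 0.85, permutation adjusted p = 0.00033 and 0.00165) and endothelial markers (r = 0.80, rho = 0.83, permutation adjusted p = 0.00139 and 0.00277). Lower values of r were found with oligodendrocyte precursor markers (r = 0.78, rho = 0.73, permutation adjusted p = 0.00776 and 0.0235) and excitatory neuron markers (r = 0.71, rho = 0.75, permutation adjusted p = 0.0308 and 0.0214). The relation was thus not confined to the astrocyte list. Gjc1 followed no list past the threshold. Its highest values were with choroid plexus (r = 0.62, rho = 0.52, permutation adjusted p = 0.0752 and 0.249) and meningeal markers (r = 0.59, rho = 0.51, permutation adjusted p = 0.0947 and 0.249). Among the vessel lists r was 0.31 and rho 0.36 with pericyte and smooth muscle markers (permutation adjusted p = 0.542 and 0.524), and 0.23 for both with endothelium (adjusted p = 0.649 and 0.784). Libraries also differ in how log2 CPM trends with gene length, from a rank correlation of -0.462 to 0.451, and this trend was set against the members too. For Gjb1 r was -0.67 and rho -0.62 (permutation adjusted p = 0.0401 and 0.0563 over 9 genes). Its r was -0.36 without the 2 farthest libraries, so the size of r depends on them. For Gjc3 r was -0.57 and rho -0.53 (permutation adjusted p = 0.0615 and 0.107), and r was -0.56 without the 2 farthest libraries. For Gja1 r was 0.60 and rho 0.67 (permutation adjusted p = 0.0615 and 0.0482), and r was 0.40 without the 2 farthest libraries. The permutations ignored the genotype and sex means removed, which makes all p-values of this paragraph too low. Those a little below 0.05 are therefore not read as passing. The part of the length trend in the relations of these 3 genes was not tested.

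**Figure D5:**
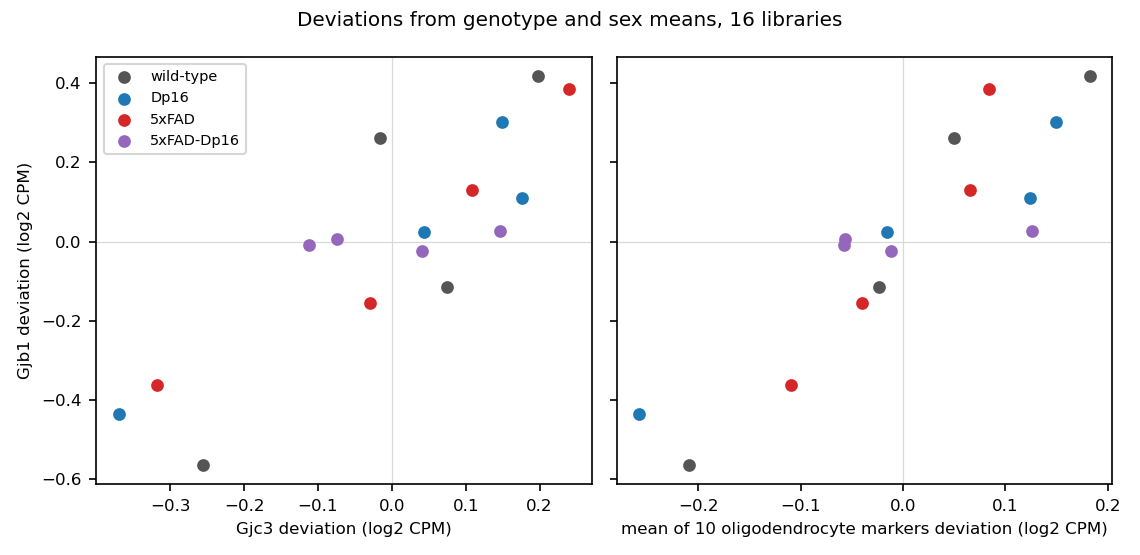
Each point is 1 of 16 libraries, coloured by genotype. The y axis is the deviation of Gjb1 log2 CPM from its genotype and sex means, and the x axes are the same for Gjc3 (left) and for the mean of 10 oligodendrocyte markers (right). Points rise along the diagonal in both, with r = 0.86 and r = 0.90.

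Since Gjb1 and Gjc3 varied together, the 250 bases before their RefSeq starts (GRCm38.p6) are shown, with any match to ACAAAG, a core bound by SOX factors such as SOX10 of the oligodendrocyte lineage, or to its reverse complement CTTTGT in capitals. RefSeq promoters were at hand for 8 of the 9 members. Gjb1 has 4 such windows, of which 2 hold the motif and are printed, and Gjc3 has 1, which holds none. Over all 11 windows of members 3 hold it, the remaining match being in Gja5, an arterial endothelial connexin. Of all 32851 windows of this length, 16.5% hold it. That share is per window, and a gene with more windows has more chances of a match. The match is a description of letters, and the counts per gene do not tell which Gjb1 start was used.
Gjb1, start 1, chrX:101376126-101376375, plus strand: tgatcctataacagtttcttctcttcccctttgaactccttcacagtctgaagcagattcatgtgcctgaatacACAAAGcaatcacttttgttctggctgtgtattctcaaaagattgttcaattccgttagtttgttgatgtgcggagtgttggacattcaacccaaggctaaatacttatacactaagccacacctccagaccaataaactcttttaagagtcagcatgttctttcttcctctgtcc
Gjb1, start 4, chrX:101383482-101383731, plus strand: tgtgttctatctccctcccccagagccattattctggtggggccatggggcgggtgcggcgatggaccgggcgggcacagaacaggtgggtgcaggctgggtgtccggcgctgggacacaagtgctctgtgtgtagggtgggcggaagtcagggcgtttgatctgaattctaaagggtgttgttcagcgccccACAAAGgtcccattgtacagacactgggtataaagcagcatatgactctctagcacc
Gjc3, chr5:137963099-137963348, minus strand: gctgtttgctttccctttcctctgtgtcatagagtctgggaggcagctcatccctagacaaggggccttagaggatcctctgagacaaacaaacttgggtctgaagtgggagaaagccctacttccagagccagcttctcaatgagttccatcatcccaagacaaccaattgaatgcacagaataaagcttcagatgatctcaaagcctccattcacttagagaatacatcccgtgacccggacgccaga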

How the data were processed

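The deposited count table holds raw reads per gene for 55385 genes, and the deposited RPKM table holds the same counts scaled by the authors to gene length and library total (100.0% of non-zero values match within 0.1%). Per the submitters' processing notes, bcl2fastq, FastQC 0.11.5, HISAT2 2.1.0, SAMtools 1.5 and HTSeq 0.6.1 were used with GRCm38, with roles and settings not given in the sources used here. Coordinates come from Gencode M21 (GRCm38), joined by gene identifier (55144 matched).

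Counts were filtered with filterByExpr (17019 genes), scaled by TMM and fitted over all 16 libraries in edgeR 4.0.16 (R 4.3.3), with a mean per genotype and an additive sex term (common biological coefficient of variation 0.266). P-values are two-sided quasi-likelihood tests, Benjamini-Hochberg adjusted over all tested genes, threshold 0.05, and measure the spread between animals. Intervals are 95% Wald intervals from the moderated variance. Between genotypes, Gjc1 was tested only where neither group had chosen it, and it was also tested for sex. The libraries that chose it remained in these fits, in the sex term and the variance. Correlations used log2 CPM (prior count 2) and 100000 permutations. The permutations treated the 16 deviations as free values although genotype and sex means had been fitted, so their p-values are too low. The fit was tested on simulated data. Neighbours are the 5 tested genes on each side of Gjc1, and like genes the highest correlations. Members and lists were chosen with earlier results of these data known. The alternatives were DESeq2 1.42.0, no filter, a replicate block, no sex term, males only, 2 groups only, removal of the length trend and each library left out. Some genes of the connexin list are not reported here.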

Additional observations from a re-analysis of the deposited data

Results flagged for a closer look

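Among the 36 sets of 4 libraries (9 genes in 4 genotypes), 3 held a library far from the other 3 by Dixon's criterion, where chance marks about 1 in 20. Gja1 in 5xFAD had its lowest value, 186 CPM, in replicate 3, with the others at 277 to 282 CPM, and this library also stood apart in its correlation with the rest. Gja4 in Dp16 had its highest value, 4.51 CPM, in replicate 3, with the others at 2.45 to 2.70 CPM. In this library the 5 choroid plexus markers summed to 109 CPM, against 8.81 to 21.0 in the other Dp16 libraries. Gja5 in wild-type had its highest value, 0.496 CPM from 6 reads, in replicate 2, with the others at 0 to 0.0526 CPM.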

How the results depend on the processing

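No connexin passed the threshold under any alternative, in any tested comparison, and no direction of Gjc1 changed. Gjc1 in 5xFAD minus wild-type ran from -2.33 to -1.94 over the 8 other alternatives and from -2.48 to -2.03 with single libraries left out. Gjb6 in 5xFAD-Dp16 minus Dp16 ran from -0.57 to -0.45 and from -0.62 to -0.43. Of 936 recomputed member differences 73 changed sign, 46 of them with a single library left out, none larger than 0.29 in size, and the cause was not tested. In 5xFAD minus wild-type, which was not tested, 27 changed sign: Gjb2 was 0.117 in males only and 0.181 with both libraries that stood apart left out, Gjd2 was -0.052 and Gja1 0.124 with both out, and with single libraries left out Gja1 ran from -0.064 to 0.148, Gjb2 from -0.681 to 0.166, Gjb6 from -0.112 to 0.086 and Gjc3 from -0.164 to 0.046. In 5xFAD-Dp16 minus Dp16, Gjc3 was -0.094 with no sex term and -0.063 with the length trend removed, and Gjb1 was 0.042 in males only, 0.042 with 2 groups only and 0.034 with the length trend removed. In Dp16 minus wild-type, Gja1 was -0.0042 with the length trend removed and -0.0071 with both libraries that stood apart left out, an alternative chosen after seeing the data, and in males only Gjd2 was -0.147 and Gjb2 0.286. In 5xFAD-Dp16 minus 5xFAD, Gja1 was 0.088 in males only and 0.068 with 2 groups only, Gjb1 was 0.0021 with the length trend removed, and Gjc3 was 0.037 and Gja4 -0.064 with both libraries out. In male minus female, Gjb2 was 0.118 with the replicate block and 0.257 with both libraries out, where Gja4 was 0.161. With single libraries left out, 5xFAD-Dp16 minus Dp16 ran from -0.156 to 0.024 for Gja1, from -0.298 to 0.208 for Gja4 and from -0.158 to 0.103 for Gjc3. Dp16 minus wild-type ran from -0.088 to 0.1003 for Gja1 and from -0.023 to 0.401 for Gjd2. 5xFAD-Dp16 minus 5xFAD ran from -0.364 to 0.012 for Gjb1, from -0.209 to 0.441 for Gjb2 and from -0.247 to 0.023 for Gjc3. Male minus female ran from -0.019 to 0.1496 for Gja1, from -0.317 to 0.094 for Gja4, from -0.259 to 0.240 for Gjb2, from -0.030 to 0.151 for Gjb6 and from -0.160 to 0.119 for Gjd2. Counts over all genes depended on the setting. 5xFAD minus wild-type had 30 genes in edgeR, 234 in DESeq2, 235 with no filter, 5 in males only, 7 with 2 groups only, 18 with both libraries out, and 16 to 19 without wild-type replicate 3 or 4 or 5xFAD replicate 1, 2 or 3. 5xFAD-Dp16 minus 5xFAD had 0, against 781, 2215, 3956 and 5020 in the first 4 of these settings, 16 with no sex term, 4 with the length trend removed, and 42, 14 and 3 without wild-type replicate 2, wild-type replicate 4 and 5xFAD replicate 4. 5xFAD-Dp16 minus Dp16 had 3, against 25 in DESeq2, 45 with no filter, and 5 with 2 groups only, both libraries out or wild-type replicate 2 out. Dp16 minus wild-type had 3, against 35, 43, 16 with the length trend removed, 1 with both libraries out, 0 with the block, males or 2 groups only, and 0 or 1 without any library but wild-type replicate 3, Dp16 replicate 4 and 5xFAD replicate 3. Male minus female had 6, and 37 with no filter. The deviations of same-numbered libraries of different genotypes had correlations of -0.512 to 0.264, so the numbers were not used to pair them. Whether same-numbered libraries share a batch or litter was not tested. With the replicate block Gjc1 in 5xFAD minus wild-type was -2.25 and 0 members passed. The low read counts of Gjc1, Gja4, Gjb2, Gjd2 and Gja5 limit their precision.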
